A study of Mus musculus with 8 samples.

Results

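The genes described here are 32 genes of sterol and fatty acid synthesis, taken by symbol from the feature lists of 8 single-cell libraries, and all 32 were among the 22056 genes listed there. They comprised 7 genes of the mevalonate pathway, 11 of the steps from squalene to cholesterol, 4 that regulate the pathway or carry sterol, and 10 that make or modify fatty acids. The libraries came from allografts of N2N1G, a mouse small cell lung cancer line, which is a neuroendocrine tumour of the lung. The line had been cultured in RPMI-1640 with bovine growth serum and then transplanted into mice, and tumours were harvested after 3 weeks. The 2 brain and 3 subcutaneous allografts had been placed by direct injection, and the 3 liver allografts had been seeded through the tail vein, so that in comparisons with liver the site and the route cannot be told apart. All groups shared the same line and time; age and strain of the mice are not given in the sources used here. The labels number the allografts of a site without saying whether each came from its own mouse, so the p-values measure the spread between these libraries.

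Levels were measured in tumour cells, defined as cells in which eGFP and Mycl together gave at least 0.2% of the cell's UMIs (unique molecular identifiers, each standing for 1 captured RNA molecule). This rule kept 34719 of 36797 cells that passed the quality filters, between 2418 and 6276 a library, and each library held 21689091 to 62047017 tumour cell UMIs. Of the cells that passed the filters, 5309 lay near the rule, between 0.1% and 0.5%, and 1329 of these were in subcutaneous library 1. The 10 listed tumour markers summed to 9392 to 12800 CPM (counts of a gene scaled to a common library total) in the selected cells. In the other cells they summed to 453.2 to 3624 CPM. The list holds eGFP and Mycl, which define the rule, beside others such as Insm1 and Chga. In brain library 1, eGFP gave 3360 and Mycl 5163 of the 11370 CPM. The difference in this sum was therefore fixed in part by the rule and is no separate support for it. RNA of other cell types differed between libraries. Macrophage and microglia markers (10 of 10 detected) summed to 481.3 and 72.24 CPM in brain tumour cells, 5.72 to 14.76 CPM in liver and 2.063 to 42.73 CPM in subcutaneous tumour cells, where subcutaneous library 1 held the highest value. Pairs of libraries shared 20 to 56 cell barcodes. A level summed over cells does not tell fewer cells with an RNA from less RNA a cell.

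Cholesterol and its intermediates are built from acetyl-CoA through mevalonate, farnesyl diphosphate, squalene and lanosterol. Fatty acids are built from the same acetyl-CoA by carboxylation, repeated condensation, elongation and desaturation. The SREBP transcription factors, encoded by Srebf1 and Srebf2, switch on genes of both branches when the membranes of the endoplasmic reticulum are short of sterol, and the Insig proteins hold them back when sterol is plentiful. Promoters of these genes are known for SREBP sites next to binding sites of the general factors NF-Y, which reads CCAAT, and Sp1, which reads GC boxes. Several of the steps after squalene use molecular oxygen.

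The promoters were read after the members of the sterol branch had been seen to move together. Whether the promoter motifs have a part in that was not tested. Upstream sequence of 250 bases before the annotated start was found for 25 of the 32 genes in RefSeq (GRCm38.p6). The 4 windows below belong to the mevalonate and sterol genes with a single listed start that were lowest in dividing cells. Capitals mark CCAAT or its reverse complement ATTGG and, in Hmgcs1, a match to TCACNCCAC, which is a form of the SREBP site.
Idi1, chr13:8885356-8885605, plus strand: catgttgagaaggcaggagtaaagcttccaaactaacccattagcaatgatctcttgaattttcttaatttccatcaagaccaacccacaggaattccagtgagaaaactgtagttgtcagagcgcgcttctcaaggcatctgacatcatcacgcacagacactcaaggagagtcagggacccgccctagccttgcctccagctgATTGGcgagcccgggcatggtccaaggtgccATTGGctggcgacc
Msmo1, chr8:64733579-64733828, minus strand: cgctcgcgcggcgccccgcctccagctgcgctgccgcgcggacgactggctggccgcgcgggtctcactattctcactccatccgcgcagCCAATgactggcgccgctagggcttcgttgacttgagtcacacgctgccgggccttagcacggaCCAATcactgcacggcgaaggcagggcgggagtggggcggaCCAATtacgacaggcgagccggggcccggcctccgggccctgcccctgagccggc
Cyp51, chr5:4104698-4104947, minus strand: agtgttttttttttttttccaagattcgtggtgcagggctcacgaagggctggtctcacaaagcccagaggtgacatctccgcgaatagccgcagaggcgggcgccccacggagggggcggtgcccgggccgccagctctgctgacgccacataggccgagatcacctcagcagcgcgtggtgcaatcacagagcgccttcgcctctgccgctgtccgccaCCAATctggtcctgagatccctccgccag
Hmgcs1, chr13:119690101-119690350, plus strand: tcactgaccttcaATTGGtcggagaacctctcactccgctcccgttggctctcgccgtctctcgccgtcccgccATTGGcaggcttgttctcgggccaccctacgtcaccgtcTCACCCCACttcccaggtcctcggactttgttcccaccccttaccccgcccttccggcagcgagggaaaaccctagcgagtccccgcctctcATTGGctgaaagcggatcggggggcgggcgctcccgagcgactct

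Msmo1 and Hmgcs1 each held 3 CCAAT matches, Idi1 held 2 and Cyp51 held 1. Searched on both strands, CCAAT was present in 19 of the 25 genes, and in 66.7% of their 30 windows against 33.8% of all 32851 windows of the same length. The GC box GGGCGG was present in 20 of the 25, and in 73.3% of their windows against 32.7% of all. TCACNCCAC was found in Hmgcs1 only, which makes 3.33% of the member windows against 1.05% of all. Matches of the 3 motifs were counted separately and may overlap, and a match to letters is a description and not a binding site. The 32851 windows were not limited to genes expressed in these cells.

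The level of the sterol branch varied between libraries of the same site. Mevalonate genes summed to 589.3 and 591.3 CPM in brain libraries 1 and 2. They summed to 463.8, 696.0 and 508.5 CPM in liver libraries 1 to 3 and to 540.1, 960.4 and 781.2 CPM in the subcutaneous ones. Brain values were close together, while subcutaneous library 2 was highest of all and subcutaneous library 1 fell within the liver range. Genes from squalene to cholesterol summed to 365.9 and 396.4 CPM in brain, 321.6, 426.9 and 344.6 CPM in liver, and 369.4, 624.8 and 530.5 CPM in subcutaneous tumours, so the same library stood lowest among the subcutaneous ones and the same library highest of all. The 4 regulators summed to 182.7 and 146.2 CPM in brain, 160.9, 181.1 and 124.9 CPM in liver and 175.2, 228.1 and 195.3 CPM in subcutaneous libraries. The summed fatty acid genes spanned the narrowest range, with 325.7 and 303.5 CPM in brain, 301.7, 320.8 and 279.6 CPM in liver and 289.0, 354.2 and 335.8 CPM in the subcutaneous libraries.

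**Figure D1:**
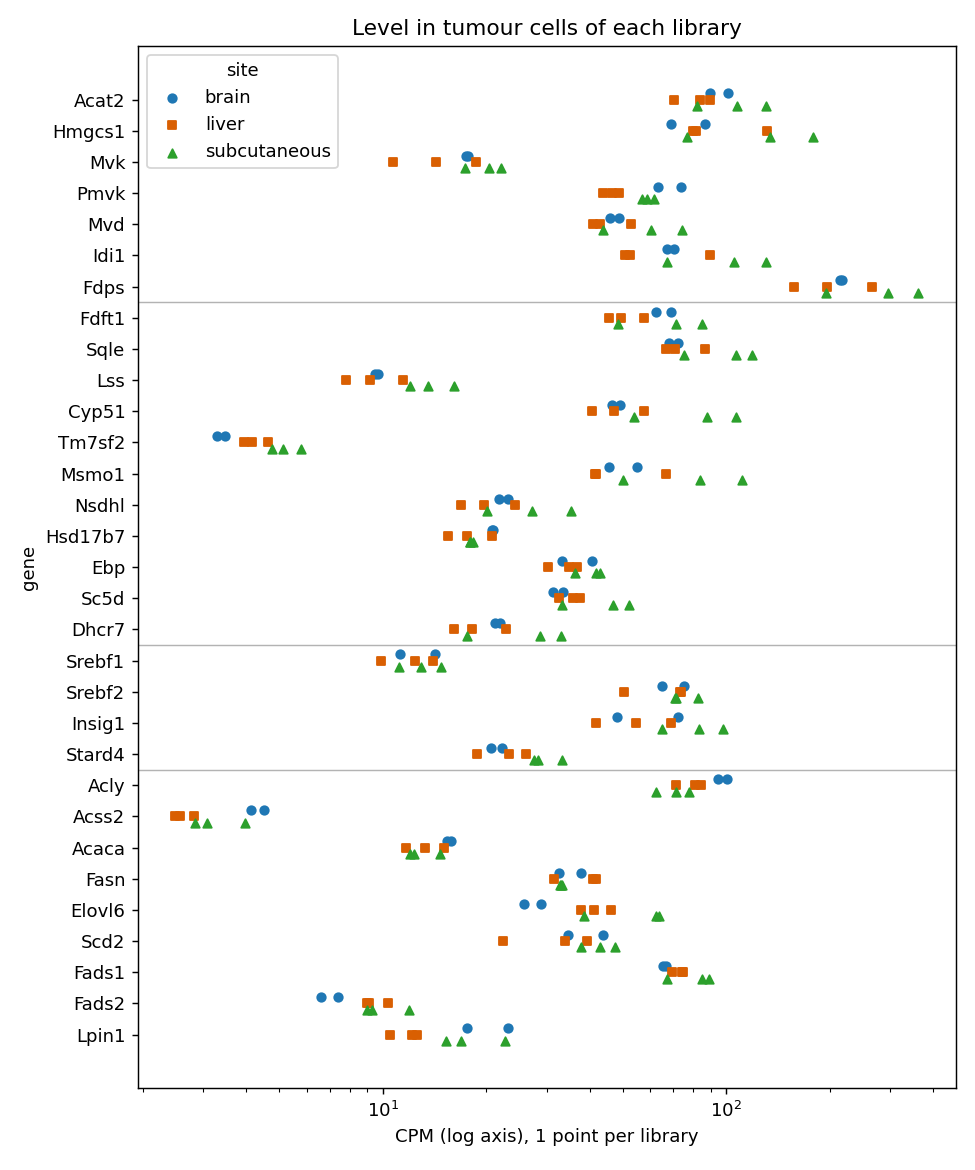
Level of 31 genes (Scd1 is left out because 1 library had no UMI) in tumour cells, in CPM on a log axis, with 1 point per library and grey lines between mevalonate, squalene and sterol, regulatory and fatty acid genes. Libraries of the 3 sites overlap for many genes, such as Fdps and Srebf2, while for others at least 1 pair of sites does not overlap. Pmvk is higher in brain than in every liver library, and Elovl6 is lower in brain than in every other library.

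The shared movement was seen gene by gene. All 18 mevalonate and sterol genes were highest in library 2 among the 3 liver libraries, a pattern that 24.7% of all 13931 tested genes had. All 18 were also lowest in library 1 among the subcutaneous libraries, as were 42.2% of all genes, and 16 of the 18 were highest of all 8 libraries in subcutaneous library 2, as were 11.9% of all genes. Among the 10 fatty acid genes these patterns held for 5, 5 and 3. These 3 patterns were chosen after the values were seen.

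Single genes of this group show the size of the movement. Fdps, which makes farnesyl diphosphate, stood at 216.6 and 214.1 CPM in brain, 157.4, 265.4 and 197.0 CPM in liver and 195.7, 362.3 and 295.0 CPM in the subcutaneous libraries. Cyp51, the lanosterol demethylase, stood at 46.32 and 48.94 CPM in brain, 40.57, 57.56 and 47.14 CPM in liver and 53.8, 106.8 and 87.64 CPM in the subcutaneous libraries. Msmo1, a sterol methyl oxidase that acts after it, stood at 45.65 and 54.98 CPM in brain, 41.71, 66.55 and 41.57 CPM in liver and 50.01, 111.0 and 83.91 CPM in the subcutaneous libraries. In each of the 3 genes, subcutaneous libraries 2 and 3 lay above all other libraries, and subcutaneous library 1 lay within the range of the liver libraries.

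Subcutaneous library 1 stood apart in other measures too. Its fibroblast markers summed to 23.0 CPM in tumour cells against 0.6608 and 1.195 CPM in the other 2 subcutaneous libraries, its tumour markers to 9392 CPM against 11830 and 11930 CPM, and its hypoxia list to 3.366 UMIs a cell against 4.339 and 3.665 at equal depth. Its share of G2/M-high cells (defined further on) was 34.65%, against 30.54% and 34.74%. In liver the share was 38.41% in library 2, against 36.34% and 38.0%. The part of these measures in the pathway's level was not tested.

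**Figure D2:**
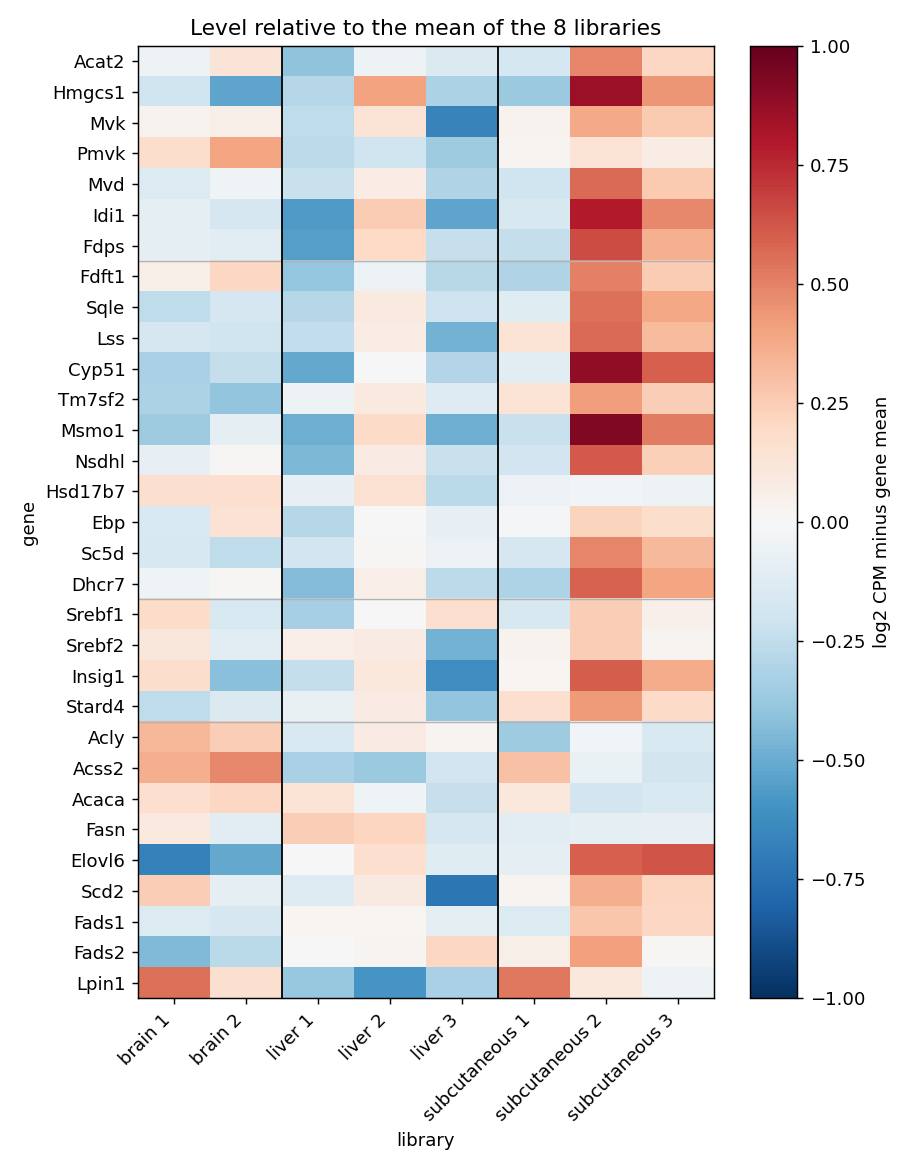
Level of 31 genes in each library as log2 CPM minus the gene's mean over the 8 libraries (colour, limited to 1 in either direction). Of the 18 rows from Acat2 to Dhcr7, 16 (all but Pmvk and Hsd17b7) are highest in subcutaneous library 2, and within liver all 18 are highest in library 2. Only some of the fatty acid genes, such as Fads1 and Scd2, share this order.

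Differences between sites were tested by edgeR's quasi-likelihood test over all 13931 genes, with the Benjamini-Hochberg adjusted p and a threshold of 0.05. Against liver, 4 of the 32 genes were higher in brain and 0 were lower. That is 12.5% of the members called, beside 21.8% of all genes in this comparison (13.2% higher and 8.56% lower). The 4 were Pmvk, Acss2, Scd1 and Lpin1, and 3 of them belong to the fatty acid branch. The median log2 difference was 0.09 over the members and 0.00 over all genes. Libraries did not overlap for 9 members above and 4 below liver, beside 28.1% and 25.6% of all genes.

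Pmvk, the phosphomevalonate kinase, was the only mevalonate gene called. It stood at 63.16 and 73.61 CPM in brain, 46.51, 48.66 and 43.76 CPM in liver and 56.92, 61.57 and 58.95 CPM in subcutaneous libraries. Brain lay above both other sites without overlap. The log2 difference from liver was 0.56 ± 0.10 (SE; adjusted p = 0.00626). That from subcutaneous tumours was 0.21 ± 0.10 (adjusted p = 0.193) and missed the threshold. Without brain library 2 the call against liver was lost (adjusted p = 0.0595).

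Acss2, which makes acetyl-CoA from acetate, was low throughout, with 4.142 and 4.506 CPM in brain, 2.571, 2.485 and 2.828 CPM in liver and 3.958, 3.069 and 2.835 CPM in the subcutaneous libraries. Brain lay above all others, though only just above subcutaneous library 1. It was higher in brain than in liver by 0.72 ± 0.20 log2 (adjusted p = 0.0313), a call lost in 5 of 22 alternatives, among them those without brain library 1 or 2 or liver library 1 or 2 (highest adjusted p = 0.133). Lpin1, the phosphatidate phosphatase lipin 1, stood at 23.07 and 17.60 CPM in brain, 12.14, 10.47 and 12.61 CPM in liver and 22.75, 16.94 and 15.25 CPM in subcutaneous libraries. Here the liver libraries were the low ones, and brain and subcutaneous libraries overlapped. The difference of brain from liver was 0.79 ± 0.19 log2 (adjusted p = 0.0189) and was lost without brain library 1 or liver library 1 or 2 (highest adjusted p = 0.13).

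Scd1, a stearoyl-CoA desaturase, was nearly absent from tumour cells outside the brain. Tumour cells gave 48 and 91 Scd1 UMIs in the brain libraries, 3, 3 and 0 in liver and 5, 9 and 3 in subcutaneous tumours. Both brain libraries were far above the other 6, in each of which at most 9 cells held a UMI. In brain, 44 of 2418 and 88 of 4060 tumour cells held a UMI. From summed UMIs, the level was 55.06 times that of liver (exact 95% interval 24.67 to 152.6, counting error only) and 21.07 times that of subcutaneous tumours (12.7 to 37.21). The fitted log2 differences, which depend on the prior count at so low a level, were 5.57 ± 0.67 (adjusted p = 0.00145) and 4.36 ± 0.60 (adjusted p = 0.00375).

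Macrophage, microglia and oligodendrocyte markers were also higher in brain tumour cells than elsewhere. In brain libraries 1 and 2, macrophage and microglia markers stood at 481.3 and 72.24 CPM, and Scd1 at 2.138 and 2.291 CPM. The other cells of the brain libraries held 6.821 and 10.97 CPM of Scd1, which is 3.082 and 4.666 times the level in their tumour cells. Such levels were not limited to brain. Other cells of liver libraries 1 to 3 held 10.74, 1.35 and 2.823 CPM (3, 1 and 1 UMIs). Those of subcutaneous libraries 1 to 3 held 11.31, 0 and 0 CPM (16, 0 and 0 UMIs). In brain library 1, 74.65% of tumour cells held a macrophage or microglia UMI, and in brain library 2, 22.29%. Oligodendrocyte markers, led by Mbp, summed to 238.3 and 167.0 CPM in brain tumour cells and to 40.19 to 52.72 CPM elsewhere. The 8 hepatocyte markers summed to 47.21 and 78.46 CPM in brain and 9.653 to 40.55 CPM elsewhere. In brain this sum was carried by Trf (34.76 and 16.92 CPM) and Ttr (11.53 and 60.71 CPM), while Alb, Fabp1, Serpina1a and Fgb were at 0 in both libraries. Adipocyte markers were at or below 0.1012 CPM in the tumour cells of every library and reached 1.35 CPM in the other cells. Brain tumour cells without a macrophage or microglia UMI, which can hold free RNA of other cells all the same, gave 10 Scd1 UMIs in 613 cells and 73 in 3155 cells. The call was kept in all 22 alternatives, including those without cells carrying macrophage or oligodendrocyte marker UMIs, and the part of free RNA in the Scd1 level was not tested. Its neighbour on chromosome 19, Scd2, which is the desaturase known for its expression in brain, stood at 43.83 and 34.49 CPM in brain, 33.83, 39.26 and 22.33 CPM in liver and 37.65, 47.51 and 42.81 CPM in subcutaneous tumour cells, with all sites overlapping and no call (brain against liver, adjusted p = 0.364). In the other cells of the brain libraries Scd2 reached 76.09 and 118.6 CPM. The same cells held 60.11 and 67.88 CPM of Pmvk, 5.116 and 6.856 CPM of Acss2, 5.968 and 12.34 CPM of Lpin1 and 56.27 and 58.28 CPM of Acly, so of these 4 genes only Acss2 was higher in them than in the tumour cells of the same library.

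Against subcutaneous tumours, 2 members were higher in brain and 2 were lower, again 12.5% of the members beside 15.1% of all genes (8.94% higher and 6.13% lower). Scd1 and Acly were higher, and Elovl6 and Tm7sf2 were lower. Of the 32 log2 differences, 8 were positive, with a median of -0.29 over the members and 0.00 over all genes. Libraries did not overlap for 6 members above and 8 below, beside 24.4% and 22.7% of all genes. The comparisons of brain with liver and with subcutaneous tumours share the brain libraries.

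Elovl6, which lengthens palmitate, had the lowest level in brain relative to the other sites. It stood at 25.7 and 28.87 CPM in brain, 41.24, 46.05 and 37.82 CPM in liver and 38.39, 62.27 and 63.66 CPM in the subcutaneous libraries. Brain was below every other library. The log2 difference was -1.004 ± 0.21 from subcutaneous tumours (adjusted p = 0.0171) and -0.61 ± 0.21 from liver (adjusted p = 0.0654). The first was lost in 5 of 23 alternatives, among them those without brain library 1 or 2 or subcutaneous library 2 or 3 (highest adjusted p = 0.136). The fatty acid desaturase gene Fads2 lay below all other libraries in brain as well, at 6.592 and 7.426 CPM against 8.986 to 11.88 CPM elsewhere, but missed the threshold (adjusted p = 0.0863 against liver and 0.0601 against subcutaneous tumours).

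Acly, which releases cytosolic acetyl-CoA from citrate for both branches, was at 100.3 and 94.55 CPM in brain, 71.59, 84.5 and 81.31 CPM in liver and 62.25, 78.06 and 71.53 CPM in subcutaneous libraries. Both brain libraries exceeded all others. Acly was higher than in the subcutaneous libraries by 0.46 ± 0.12 log2 (adjusted p = 0.0317), a call lost in 7 of 23 alternatives, among them those without brain library 1 or 2, liver library 2 or subcutaneous library 2 or 3 (highest adjusted p = 0.194). The difference from liver was 0.30 ± 0.12 (adjusted p = 0.102). Tm7sf2, a sterol reductase, was at 3.474 and 3.298 CPM in brain, 4.169, 4.616 and 3.954 CPM in liver and 4.749, 5.775 and 5.115 CPM in subcutaneous libraries, so the 3 sites were in order without overlap. The difference between brain and subcutaneous tumours was -0.63 ± 0.17 log2 (adjusted p = 0.0365), and it was lost in 12 of 22 alternatives, among them those without cells carrying macrophage or oligodendrocyte marker UMIs and those without brain library 1 or 2, liver library 1 or 2 or subcutaneous library 2 or 3 (highest adjusted p = 0.168).

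Between liver and subcutaneous tumours 0 of 32 members passed, beside 2.83% of all genes (0.933% higher and 1.9% lower). At an unadjusted p under 0.05 there were 12 members, and DESeq2 called 4, all lower in liver (Pmvk, Lss, Cyp51 and Lpin1), with 7.93% of all genes called. The log2 difference was negative for 29 of the 32 members, with a median of -0.39 over the members and -0.01 over all genes. Libraries did not overlap for 6 members below and 0 above, beside 12.8% and 12.1% of all genes. The largest differences of the sterol branch were those of Cyp51, -0.77 ± 0.23 (adjusted p = 0.111), and Msmo1, -0.71 ± 0.29 (adjusted p = 0.247).

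The most members passed when subcutaneous library 1 was left out. All 18 mevalonate and sterol genes were lowest in it among the subcutaneous libraries, so its removal had to raise their subcutaneous means. The calls without it are therefore no separate support. Without this library, 12 members were called, all lower in liver than in the 2 other subcutaneous tumours. The share of all genes called in either direction was 7.39% (2.83% with all libraries). Between brain and subcutaneous tumours 18 members differed, 15 of them lower in brain, beside 34.3% of all genes (15.1% with all libraries). Cyp51 was then lower by 1.01 ± 0.14 log2 in liver (adjusted p = 0.00427) and by 1.03 ± 0.16 in brain (adjusted p = 0.00111). Msmo1 gave -0.96 ± 0.21 (adjusted p = 0.0292) and -0.95 ± 0.24 (adjusted p = 0.0135). Sqle, which makes squalene epoxide in the first oxygen-dependent step, gave -0.59 ± 0.12 (adjusted p = 0.0182) and -0.68 ± 0.13 (adjusted p = 0.00334). The sterol branch genes Lss, Sc5d and Dhcr7 passed in both comparisons too, while Hmgcs1, Idi1 and Fdps passed in the comparison with brain but not in that with liver. Brain against liver then gave 7 members, beside 32.9% of all genes.

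**Figure D3:**
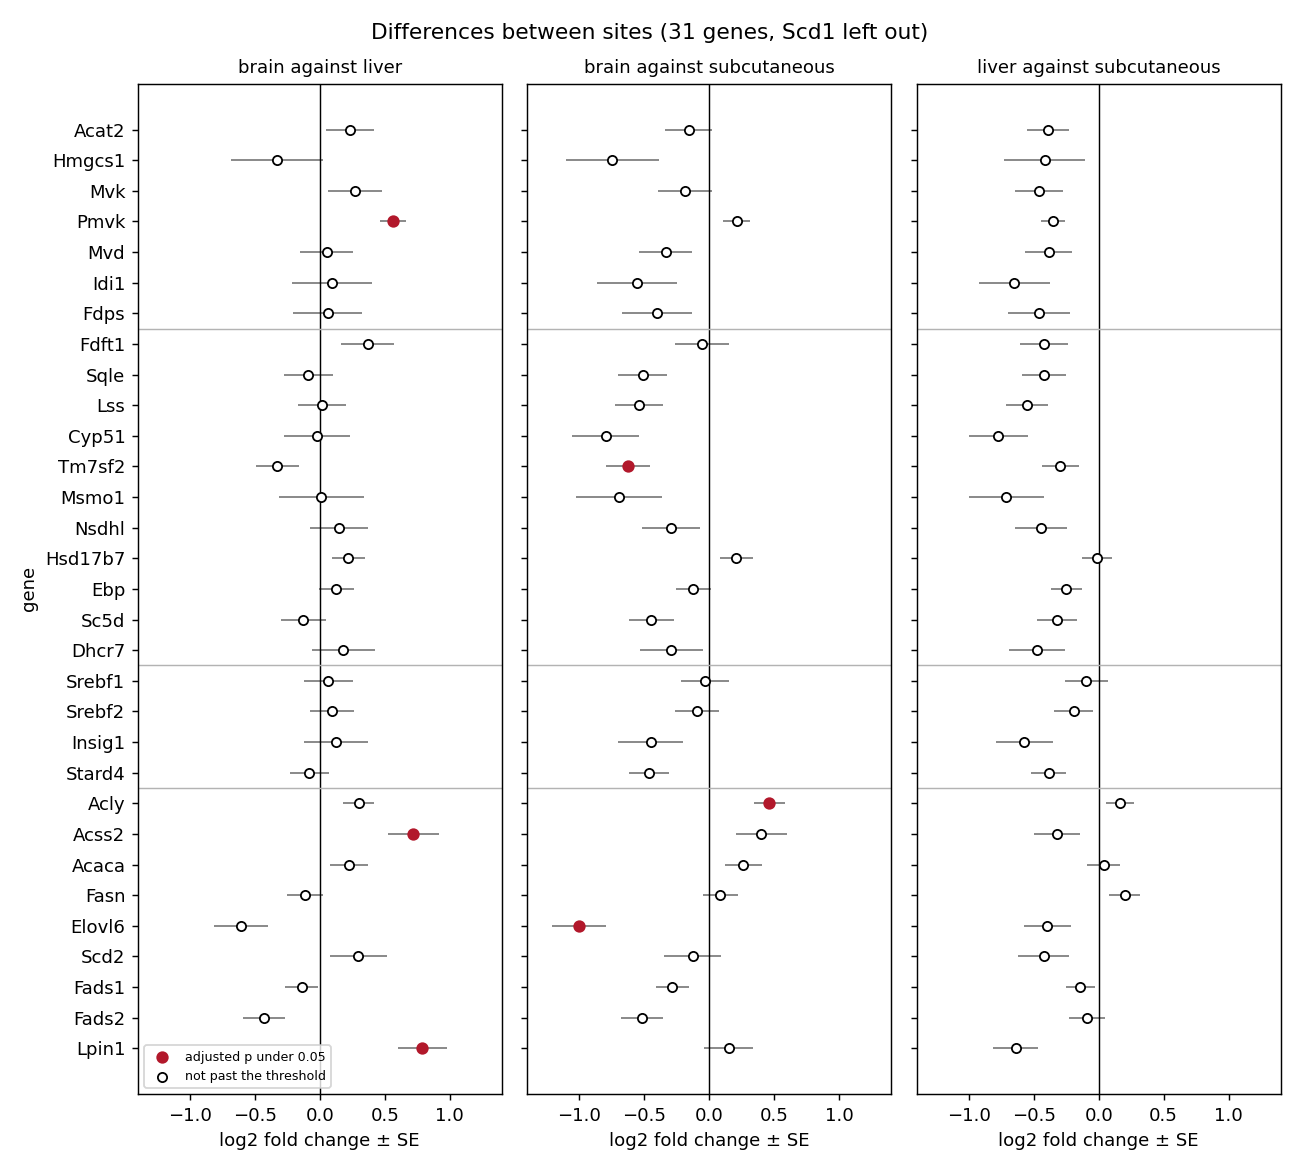
Log2 fold change (points) and SE (bars) of 31 genes in 3 comparisons of sites, with red points past an adjusted p of 0.05; positive values are higher in the site named first. Scd1 (5.57 and 4.36 in the brain comparisons) lies outside the axes. Nearly all mevalonate and sterol genes lie left of 0 in the liver against subcutaneous panel, and none is red there.

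None of the 4 regulators passed in the 3 comparisons when all libraries were fitted with edgeR. Srebf2, the master factor of sterol synthesis, stood at 75.54 and 64.77 CPM in brain, 73.1, 73.61 and 50.32 CPM in liver and 71.33, 82.62 and 71.09 CPM in subcutaneous libraries, with all sites overlapping. Insig1, itself a target of SREBP, ranged from 41.82 CPM in liver library 3 to 97.58 CPM in subcutaneous library 2. Srebf1 ranged from 9.872 to 14.74 CPM, and the sterol carrier gene Stard4 from 18.78 to 33.19 CPM with a difference of -0.47 ± 0.15 log2 between brain and subcutaneous tumours (adjusted p = 0.0708). Stard4 did pass by DESeq2 (adjusted p = 0.0416) and in the fits without liver library 3 (adjusted p = 0.0444) or subcutaneous library 1 (adjusted p = 0.0291).

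The cell cycle was examined inside each library. Tumour cells were thinned to 3000 UMIs each, and those with at least 4 UMIs over 20 G2/M genes (such as Mki67, Top2a and Ccnb1) were set against those with 0, with unthinned UMIs summed for each class and the library as a block. Of the 32 members, 18 were lower in G2/M-high cells and 2 were higher. The members called make 62.5% beside 56.1% of all genes, those lower 56.2% beside 29.9%, and those higher 6.25% beside 26.3%. The median log2 difference was -0.16 over the members and -0.02 over all genes. G2/M-high cells had median UMI counts of 10203 to 11899 a library and G2/M-low cells 7365 to 10289, and the count of called members was 16 to 22 in all alternatives, sums of thinned counts included.

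Of the 11 genes from squalene to cholesterol, 9 were lower and Ebp was higher, and of the 7 mevalonate genes 4 were lower and Mvk was higher. Of the 4 regulators 2 were lower, and of the 10 fatty acid genes 3. Idi1, the isomerase of isopentenyl diphosphate, showed the largest difference, with log2 ratios of -0.61 and -0.27 in the brain libraries, -0.72, -0.83 and -0.77 in liver and -0.70, -0.62 and -0.90 in subcutaneous tumours. All 8 were negative, and brain library 2 was the least so. The fitted difference was -0.69 ± 0.06 (adjusted p = 1.05e-05).

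Msmo1 was lower in G2/M-high cells of all 8 libraries, with log2 ratios from -0.78 to -0.40 and a fitted difference of -0.66 ± 0.04 (adjusted p = 9.22e-15). Dhcr7, a sterol reductase near the end of the pathway, was lower by 0.59 ± 0.05 (adjusted p = 6.51e-12), with all 8 ratios between -0.71 and -0.47. Cyp51 had ratios from -0.73 to -0.30 and a difference of -0.58 ± 0.04 (adjusted p = 5.27e-10). Hmgcs1, which condenses acetoacetyl-CoA into HMG-CoA, had ratios from -0.73 to -0.34 and a difference of -0.57 ± 0.04 (adjusted p = 1.52e-10), and its mean level was 82.95 CPM in G2/M-high and 123.1 CPM in G2/M-low cells. No ratio of these 4 genes was above 0 in any library.

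Smaller differences in the same direction were called for Hsd17b7 (-0.45), Sqle (-0.44), Lss (-0.37), Mvd (-0.31), Fdps (-0.28) and Nsdhl (-0.28), all negative in 8 of 8 libraries. Fdft1 and Sc5d were called at -0.09 each but lost the call in 8 of 13 alternatives, among them those without liver library 1 or 2 or subcutaneous library 2 or 3, and for Sc5d also without liver library 3 (highest adjusted p = 0.166 and 0.197). Ebp, the sterol isomerase, was higher by 0.22 ± 0.04 (adjusted p = 1.6e-05) and Mvk, the mevalonate kinase, by 0.18 ± 0.05 (adjusted p = 0.00282), both in 8 of 8 libraries. Mvk lost the call with thinned sums (adjusted p = 0.0677).

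Of the regulators, Insig1 was lower by 0.38 ± 0.03 log2 (adjusted p = 4e-11) and Srebf2 by 0.23 ± 0.03 (adjusted p = 7.05e-07), each in all 8 libraries. In the fatty acid branch 3 of 10 were lower: Acly at -0.29 ± 0.03 (adjusted p = 3.25e-09), Acss2 at -0.40 ± 0.12 (adjusted p = 0.00555) and Lpin1 at -0.33 ± 0.07 (adjusted p = 9.55e-05). Acss2 was not called by DESeq2 or with thinned sums (highest adjusted p = 0.449). Fasn, the fatty acid synthase, gave -0.03 ± 0.05 (adjusted p = 0.621) with ratios on both sides of 0, and Acaca, Scd2, Elovl6, Fads1 and Fads2 did not pass either.

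**Figure D4:**
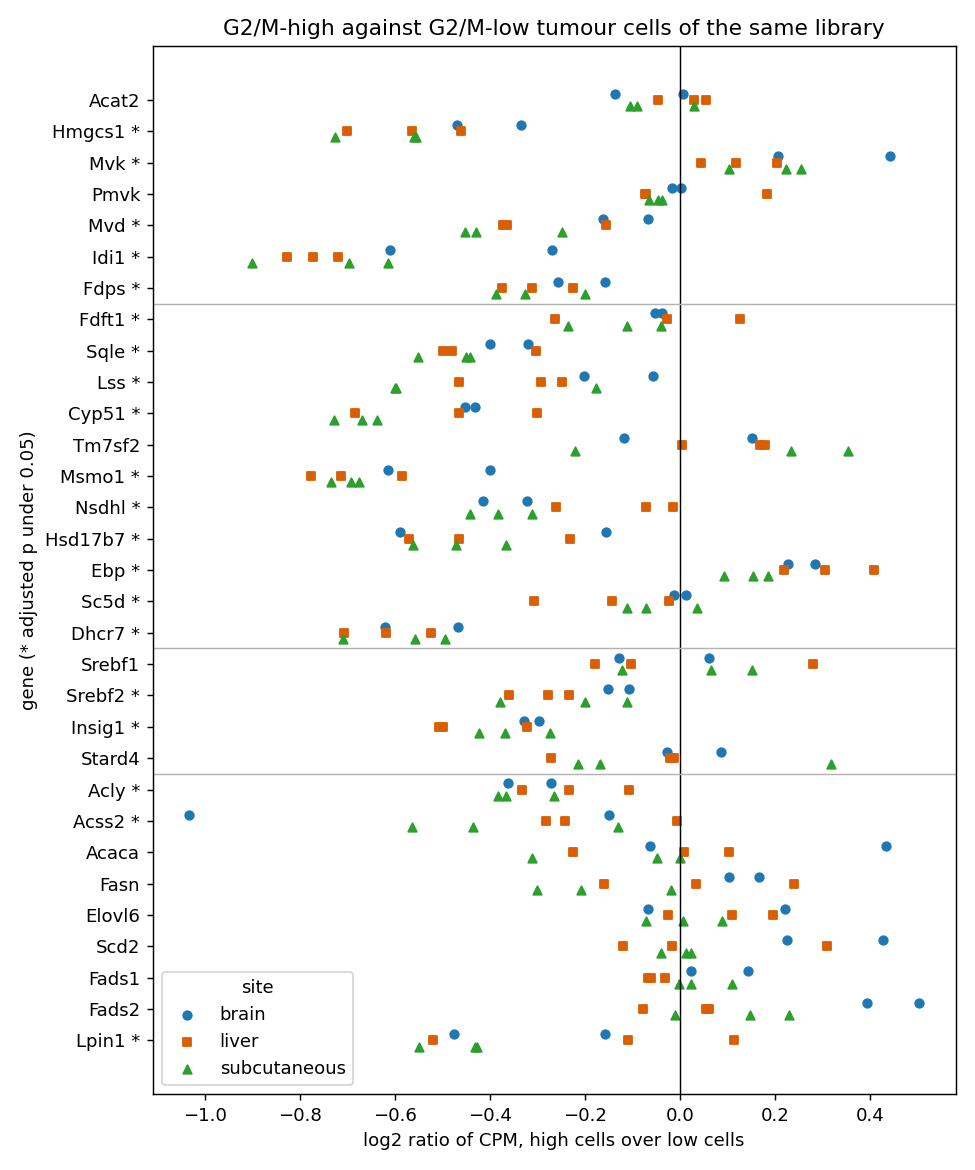
Log2 ratio of CPM in G2/M-high over G2/M-low tumour cells of the same library for 31 genes, 1 point per library; asterisks mark an adjusted p under 0.05. All 8 points of Idi1, Msmo1, Dhcr7, Cyp51 and Hmgcs1 lie below 0, while those of Fasn, Elovl6 and Fads1 lie on both sides.

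The G2/M difference was tested for a change between sites by an interaction term. It differed for 1 of 32 members, Idi1, beside 4.29% of all genes. Its log2 difference was -0.39 ± 0.08 for brain, -0.78 ± 0.06 for liver and -0.75 ± 0.05 for the subcutaneous libraries (adjusted p = 0.0295), and the call was lost without brain library 2, where the brain value became -0.58 (adjusted p = 0.686), without liver library 1 (adjusted p = 0.0832) and without subcutaneous library 1 (adjusted p = 0.0783).

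A second comparison inside each library used 14 genes induced by low oxygen, among them Vegfa, Slc2a1 and Bnip3. The 20% of tumour cells with the most UMIs of this list were set against the 20% with the fewest. The list was not equal between sites: its mean was 1.362 and 1.289 UMIs a cell in brain, 1.521 to 1.628 in liver and 3.366 to 4.339 in subcutaneous libraries, so that the hypoxia-high class began at 2 to 3 UMIs in brain and liver and at 5 to 7 in the subcutaneous libraries. G2/M-high cells made up 25.33% to 36.91% of the hypoxia-high class and 33.85% to 42.01% of the hypoxia-low class. The part of the cell cycle in these differences was not tested beyond the alternative among cells without G2/M UMIs.

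In hypoxia-high cells 9 members were lower and 3 were higher, 37.5% in all beside 31.3% of all genes, with 28.1% lower beside 14.6% of all genes and 9.38% higher beside 16.7%. Of the 7 mevalonate genes 5 were lower. Acat2, which condenses acetyl-CoA, was lower by 0.51 ± 0.08 log2 (adjusted p = 0.00185) and Fdps by 0.26 ± 0.04 (adjusted p = 0.0018), both in 8 of 8 libraries. Mvk (-0.36), Idi1 (-0.29) and Pmvk (-0.18) were the others, and Pmvk lost the call with thinned sums and among cells without G2/M UMIs (highest adjusted p = 0.196), as Mvk did with thinned sums (adjusted p = 0.0805).

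The sterol genes did not move as a block. Hsd17b7, a 3-ketosteroid reductase of the pathway, was lower by 0.54 ± 0.09 (adjusted p = 0.00201) in 8 of 8 libraries, and Sc5d, the lathosterol oxidase, was higher by 0.25 ± 0.07 (adjusted p = 0.0169), also in 8 of 8. Sc5d lost the call in 5 of 15 alternatives, among them those without subcutaneous library 2 or 3 (highest adjusted p = 0.287). Of the other 9 none passed, and their differences ran from -0.35 for Tm7sf2 to 0.33 for Lss. Srebf1 was the 1 regulator called, higher by 0.50 ± 0.10 (adjusted p = 0.00315), with ratios between 0.08 and 0.93 in the 8 libraries.

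In the fatty acid branch 3 of 10 genes were lower and 1 was higher. Fasn was lower by 0.52 ± 0.13 (adjusted p = 0.013), Acaca, the acetyl-CoA carboxylase, by 0.38 ± 0.11 (adjusted p = 0.0177, but 0.128 among cells without G2/M UMIs) and Acly by 0.33 ± 0.05 (adjusted p = 0.00171). Lpin1 was higher by 0.37 ± 0.11 (adjusted p = 0.0229), a call lost in 5 of 15 alternatives, which were DESeq2, thinned sums, and the fits without subcutaneous library 1, 2 or 3, each left out in turn (highest adjusted p = 0.15). Acss2 gave -0.39 ± 0.15 and missed the threshold (adjusted p = 0.0644), and Elovl6, Scd2, Fads1 and Fads2 did not pass either. Scd1 had too few UMIs for either comparison inside libraries (adjusted p = 0.372 for G2/M and 0.811 for hypoxia).

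The hypoxia difference itself changed between sites for 11 of 32 members, beside 25.7% of all genes. Fasn gave -0.07 ± 0.12 for brain, -0.33 ± 0.08 for liver and -0.99 ± 0.08 for subcutaneous tumours (adjusted p = 1.01e-06), and its 3 subcutaneous ratios of -1.05, -0.94 and -1.02 lay below the 5 others. Msmo1 gave 0.25 ± 0.10, -0.09 ± 0.07 and 0.48 ± 0.06 in the same order (adjusted p = 7.55e-05). Lss, the lanosterol synthase, gave 0.05 ± 0.19, -0.02 ± 0.14 and 0.75 ± 0.12 (adjusted p = 0.0016), and Cyp51 gave 0.06 ± 0.09, 0.00 ± 0.07 and 0.36 ± 0.06 (adjusted p = 0.00263). The test covers the 3 sites together and not a pair of them.

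These calls moved with how the classes were drawn and summed. With the same limits in every library, at least 4 UMIs against 0, the number was 6, of which 4 were among the 11 (Hmgcs1, Lss, Cyp51 and Msmo1), and Fasn no longer differed between sites (-0.29, -0.44 and -0.68, adjusted p = 0.211). Among cells without G2/M UMIs 6 members differed, with Fasn (adjusted p = 0.0047) and Msmo1 (adjusted p = 0.00178) but not Lss (adjusted p = 0.247) or Cyp51 (adjusted p = 0.186). With sums of thinned counts 7 of the 11 were lost, Lss (adjusted p = 0.236) and Cyp51 (adjusted p = 0.0888) among them, and the liver value of Lss moved from -0.02 to 0.40. Msmo1 kept its call in all alternatives, with an adjusted p of at most 0.0129.

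**Figure D5:**
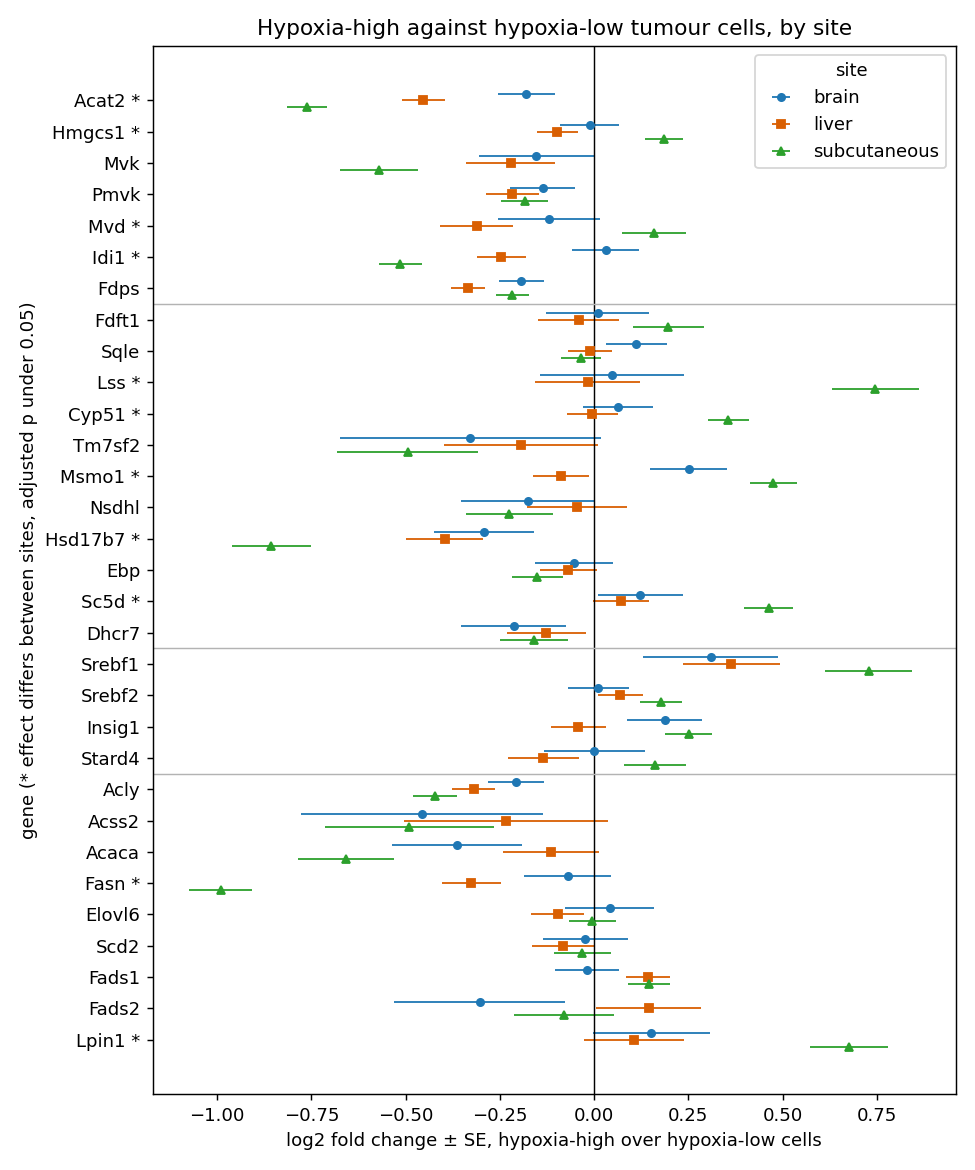
Log2 fold change (points) and SE (bars) in hypoxia-high over hypoxia-low tumour cells for 31 genes, fitted for each site; asterisks mark genes whose change differed between sites at an adjusted p under 0.05. Compared with brain and liver, the subcutaneous point lies farther left for Fasn, Hsd17b7 and Acat2 and farther right for genes such as Lss, Lpin1 and Msmo1.

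Other genes of the pathways were taken from 3 lists that hold no member. Of 22 tested genes around sterol synthesis and transport, 4 were higher and 2 lower in brain than in liver, 3 and 1 against subcutaneous tumours, and 0 differed between liver and subcutaneous tumours, where 8 had an unadjusted p under 0.05. The called genes make 27.3% beside 21.8% of all genes in the first comparison and 18.2% beside 15.1% in the second, close to the background. Lbr, a lamin receptor that is also a sterol reductase, was higher in brain than in liver by 0.49 ± 0.14 (adjusted p = 0.0362), and Nr1h2, the oxysterol receptor LXR beta, was lower by 0.48 ± 0.10 (adjusted p = 0.0113). Insig2 was lower in brain than in subcutaneous tumours by 0.41 ± 0.11 (adjusted p = 0.0365), and Nus1, a subunit of the enzyme that makes dolichol, was lower than in liver by 0.40 ± 0.12 (adjusted p = 0.048).

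Of 28 tested genes around fatty acid synthesis and use, 4 were higher and 3 lower in brain than in liver. Against subcutaneous tumours 3 were higher and 4 lower, and between liver and subcutaneous tumours 3 were higher and 2 lower. These make 25% beside 21.8% of all genes, 25% beside 15.1%, and 17.9% beside 2.83%. Elovl1, which makes very long saturated chains, stood at 51.76 and 65.07 CPM in brain, 15.27, 17.71 and 21.41 CPM in liver and 31.62, 28.45 and 27.09 CPM in the subcutaneous libraries. The 3 sites did not overlap, and brain exceeded liver by 1.69 ± 0.16 log2 (adjusted p = 0.000617) and subcutaneous tumours by 1.01 ± 0.16 (adjusted p = 0.00578). Tecr, the reductase of the same elongation cycle, was higher in brain by 0.77 ± 0.13 (adjusted p = 0.00477) and 0.57 ± 0.13 (adjusted p = 0.0219). The chain activating gene Acsl3 and the lipogenesis gene Thrsp were lower in brain than in subcutaneous tumours, by 1.27 ± 0.35 (adjusted p = 0.0419) and 0.92 ± 0.23 (adjusted p = 0.0305), and Acsl1 was higher in liver than in subcutaneous tumours by 0.63 ± 0.10 (adjusted p = 0.0212).

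Of 16 tested genes of fatty acid oxidation, 0 were higher in brain, 5 were lower than in liver and 3 lower than in the subcutaneous libraries, while 1 was higher in liver than in subcutaneous tumours. The lower genes make 31.2% beside 8.56% of all genes against liver and 18.8% beside 6.13% against subcutaneous tumours, and the 1 higher in liver makes 6.25% beside 0.933%. Acadl, a long chain acyl-CoA dehydrogenase, stood at 12.83 and 18.38 CPM in brain, 36.57, 27.54 and 36.34 CPM in liver and 25.35, 30.39 and 30.45 CPM in the subcutaneous libraries, and brain lay below all others (-1.09 ± 0.19 log2 against liver, adjusted p = 0.00533). Hadh was lower than in liver by 0.76 ± 0.14 (adjusted p = 0.00738), Acaa2 by 0.69 ± 0.19 (adjusted p = 0.0315) and Slc25a20, the carnitine carrier, by 0.68 ± 0.14 (adjusted p = 0.0109). Macrophage, microglia and oligodendrocyte markers were higher in brain tumour cells, and the part of host RNA in these lists was not tested.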

How the data were processed

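The authors deposited, for each library, a matrix of UMI counts per gene and cell, in a format that the file headers place at software version 3.0.0; the deposited values were raw counts. Cell Ranger, STAR and the build mm10 are named in the submitters' processing notes, without versions, and the annotation is not given in the sources used here. No deposited barcode had fewer than 501 UMIs, so cells were selected earlier.

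A cell entered with 500 or more genes and a mitochondrial share up to 10% of its UMIs, which left 36797 of 38460. No doublet caller was run. Counts of tumour cells were summed per library and fitted in R 4.3.3 with edgeR 4.0.16 (TMM, filterByExpr, robust quasi-likelihood), in 1 model with a mean for each site (residual degrees of freedom 5; coefficient of biological variation 17.9%). Genes not tested held 0.0133% of the UMIs. Printed CPM values of members and of the other pathway genes in all tumour cells of a library are scaled by TMM. Values of cell type markers, of other cells and of the classes inside libraries are not. The ratios of Scd1 in other cells to tumour cells also use unscaled values. SE is the log2 difference divided by the root of F. Classes inside libraries were scored on cells thinned to 3000 UMIs (seed 7) and fitted with the library as a block. Test steps were run on simulated data first. Genes were placed by identifier on GENCODE M21 (GRCm38).

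The members and lists were chosen with earlier results of these data known. Every-library values are given for members past the threshold in a site comparison, for the highest gene of a role with none, and, after their values were seen, for Fdps, Cyp51, Msmo1, Idi1 and Scd2. From each other list at most 5 genes are named, those with the largest difference among called genes with a mean of at least 10 CPM; some listed genes are not reported here by name. Alternatives covered DESeq2 1.42.0, size factors, filters, tumour cell rules, thinning, host marker UMIs, cell cycle, the replicate number as a block, the sites in the fit, and each library left out. Depth limits low genes: 3 UMIs correspond to 0.1383 CPM in brain library 1.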

Additional observations from a re-analysis of the deposited data

Results flagged for a closer look

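In 12 cases the change inside libraries differed between the 3 sites by the interaction test of edgeR, and the cause was not tested in any of them. For G2/M-high against G2/M-low cells this was Idi1 (adjusted p = 0.0295), with a smaller difference in brain. For hypoxia-high against hypoxia-low cells, Fasn (adjusted p = 1.01e-06), Acat2 (9.25e-06), Idi1 (0.000221) and Hsd17b7 (0.0113) had their most negative log2 difference in subcutaneous tumours, -0.99, -0.76, -0.51 and -0.86. Msmo1 (adjusted p = 7.55e-05), Lss (0.0016), Cyp51 (0.00263), Sc5d (0.00444), Hmgcs1 (0.00872), Lpin1 (0.0116) and Mvd (0.0316) had their most positive there, 0.48, 0.75, 0.36, 0.46, 0.18, 0.68 and 0.16. The hypoxia-high classes began at more UMIs in subcutaneous libraries. With equal limits Acat2, Idi1, Hsd17b7, Fasn, Sc5d, Lpin1 and Mvd no longer passed, with adjusted p of 0.523, 0.279, 0.763, 0.211, 0.0684, 0.17 and 0.167. With thinned sums Hmgcs1, Lss, Cyp51, Idi1, Sc5d, Lpin1 and Mvd did not pass (0.14, 0.236, 0.0888, 0.119, 0.0741, 0.122 and 0.073), and among cells without G2/M UMIs Hmgcs1, Lss, Cyp51, Hsd17b7, Sc5d and Mvd did not (0.419, 0.247, 0.186, 0.162, 0.121 and 0.105). Mvd also did not pass in 6 of the 8 fits that left out a library, Lpin1 in those without liver library 3 or subcutaneous library 2 (adjusted p = 0.0528 and 0.173), Hmgcs1 in those without liver library 1 or subcutaneous library 2 (0.0712 and 0.111), Cyp51 in that without subcutaneous library 2 (0.0799) and Sc5d in that without subcutaneous library 3 (0.0522).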

How the results depend on the processing

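No called member changed direction under any alternative run of the 3 site comparisons or of the G2/M and hypoxia comparisons over all libraries. For 7 of the 11 members whose hypoxia change differed between sites, the value of a single site did change sign: in brain for all 7 (with thinned sums Hsd17b7 went from -0.29 to 0.09, Lpin1 from 0.15 to -0.28 and Lss from 0.05 to -0.15), in liver for 3 and in subcutaneous tumours for Hmgcs1 (0.18 to -0.03 among cells without G2/M UMIs). Counts of called members moved with the choice of libraries and filters. Brain against liver gave 4 members, 2 among genes averaging 10 CPM or more, and 2 to 7 when each library was left out in turn. Brain against subcutaneous tumours gave 4, then 2 among genes averaging 10 CPM or more, 2 among cells with an eGFP UMI, 1 with only the 2 sites compared in the fit, and 1 to 18 with a library left out. Liver against subcutaneous tumours gave 0, 4 by DESeq2, and 0 to 12 with a library left out. The 18 and 12 came without subcutaneous library 1; 1 came without brain library 1 or 2 or subcutaneous library 2 or 3. G2/M-high cells gave 20 members (16 to 22 over 13 alternatives) and hypoxia-high cells 12 (10 to 17 over 15). The site difference of the G2/M change gave 1 member, 2 with high cells from 8 UMIs, and 0 to 4 with a library left out. That of the hypoxia change gave 11, and 6 with thinned sums, 6 with equal UMI limits, 6 among cells without G2/M UMIs and 7 to 12 with a library left out; these alternatives of the site difference, the equal limits, the cells without G2/M UMIs and the one without oligodendrocyte marker cells were chosen after seeing the data.

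With the replicate number as a block, 3, 4 and 0 members were called in the 3 site comparisons, and 2482, 1378 and 229 of all genes; against the fit without it, brain against liver lacked Acss2 (adjusted p = 0.0727), and in brain against subcutaneous tumours Stard4 (-0.55 ± 0.12, adjusted p = 0.0337) was called and Tm7sf2 (adjusted p = 0.0612) was not. Whether same-numbered libraries are paired could not be told from the values. Deviations of same-numbered libraries from their site means correlated between -0.24 and 0.24 (4 of 7 pairs at or below 0.1). Those of other pairs correlated between -0.25 and 0.28. With 2 brain libraries, their deviations mirror each other, so these pairs are not independent. Best correlated with a library of their own number were 3 of 8 libraries. Among these were brain libraries 1 and 2, with subcutaneous libraries 1 and 2 (0.24 and 0.22).

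With 2 brain libraries, a fit without 1 of them leaves a single brain library, and most calls of brain were lost in such a fit. For Acss2 against liver, and for Acly, Elovl6 and Tm7sf2 against subcutaneous tumours, this held whichever brain library was left out. Genes below 10 CPM rest on few UMIs. Doublets were not removed, and their part in the calls was not tested. Fits without the deepest 5% of cells cannot single them out, since a doublet with a shallow cell need not be among the deepest. Other cells had median UMI counts of 3585 to 5008 a library, and tumour cells 7972 to 10542.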
